A study of Homo sapiens with 6 samples.

Results

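The p53 tumour suppressor is a transcription factor that is held at low levels by MDM2 and MDM4 and that, when released by DNA damage or other stress, turns on genes that stop the cell cycle, repair DNA, change metabolism or start cell death. MDM2 is itself one of its targets, so p53 and MDM2 form a negative feedback loop. The cells studied here, CAL-27, are an established human line of tongue squamous carcinoma and are known to carry a mutated p53, and several of these genes also respond to other stress pathways, as GDF15 does to ATF4 and CHOP. The 9 genes described are the regulators MDM2 and MDM4 and 7 genes commonly listed as p53 targets, namely CDKN1A, GDF15, ZMAT3, SESN1, TP53INP1, RRM2B and BTG2. They were picked out of 19740 RefSeq genes with a probe, and all of their probes, 14 of 34127 on the array, are given. The genes were chosen by general knowledge of the pathway with values of the same comparison already known, so their differences are given as a description, without a test.

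Total RNA of CAL-27 cells was hybridised to 6 Agilent 1-colour arrays with the Cy3 dye, 3 for cells given a control shRNA (shCtrl) and 3 for cells given one that targets XBP-1s (shXBP-1s). XBP-1s is the spliced, active form of XBP1, a transcription factor that IRE1 switches on when proteins misfold in the endoplasmic reticulum, and the comparison asks which transcripts differ once it is lowered. Both groups are the same cell line with no further treatment in their labels, and how many shRNA sequences or clones stand behind a group is not given in the sources used here. The study's statistics section speaks of independent experiments in general and gives 3 arrays per group here, but neither it nor the labels say that these 3 came from separate cultures, so the errors below measure the spread between these samples, which may be technical.

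A level is the log2 signal of a probe minus the 75th percentile of its array, and a difference is the mean level of shXBP-1s minus that of shCtrl, so a difference of -1 is a level lowered to 50%. Levels of different probes cannot be set against each other. The 75th percentile ranged from 687.4 to 761.3 in shCtrl and from 792.0 to 983.4 in shXBP-1s, 82.1% to 84.8% of the spots were well above background, and no spot was saturated. XBP1, the targeted gene, had levels of 1.88, 1.85 and 1.87 in shCtrl and -0.50, -0.54 and -0.52 in shXBP-1s, a difference of -2.39 (SE 0.04), or 5.23-fold lower. Its probe is assigned to the gene and not to the spliced form. By the scan dates in the headers the arrays came from 2 scans. Those of shCtrl replicates 2 and 3 were in scan 1, and shCtrl replicate 1 and the 3 shXBP-1s arrays were in scan 2. The value within scan 2 is therefore the shXBP-1s mean against shCtrl replicate 1 alone, and it is given for each probe. All 7 markers of squamous epithelium and all 8 markers of leukocytes, fibroblasts and endothelium were well above background on all 6 arrays. The summed level of the squamous markers, on the linear scale, lay between 33 and 35.9 in shCtrl and between 49.5 and 53.6 in shXBP-1s. By the call defined below 5 of 7 were higher (KRT5, KRT14, KRT17, KRT6A and DSG3, log2 differences of 1.17 to 4.28). CDH1 (0.13) and PKP1 (-0.02) did not pass, and CDH1, with a mean level of 4.86 in shCtrl, weighs most in the sum. Such a sum adds unlike probes and serves only to compare arrays. The sum of the other markers lay between 1.58 and 1.72 in shCtrl and between 1.27 and 1.32 in shXBP-1s, with 1 of 8 called, the fibroblast receptor PDGFRB (-1.28). By the adjusted p alone COL1A1 (-0.63) was also lower and the macrophage marker CD68 (0.65) higher, and PTPRC, CD3E, COL1A2, PECAM1 and VWF, at -0.07 to 0.17, did not pass. No marker was at background by the scanner flag. The dimmest, PECAM1, had signals of only 9.5 to 17.7, where the lowest signals well above background on an array were 4.9 to 7.4. The part of these shifts in the values below was not tested.

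RefSeq promoter windows of GRCh38.p14, 250 bases before to 50 after each annotated start, were found for 7 of the 9 genes, 13 windows in all. TP53INP1 and RRM2B had no entry. In these windows a pair of adjacent p53 decamers was looked for, with at most 3 mismatches to the consensus over 20 bases and the C and G of each decamer's core intact, a limit set after the sequences had been seen. The consensus is the same on both strands. Such a pair was in 4 windows of 3 genes, MDM2, GDF15 and SESN1, whose sequences are shown because they carry the pair. The genes and this limit were both chosen with values in view, so nothing is read from which genes hold a pair. Such a pair was in 1.12% of all 35116 windows of this kind, and one with at most 2 mismatches in 0.285%. The 250 bases before the start of the internal MDM2 promoter, on the plus strand at chr12:68808767-68809016, and of 1 SESN1 promoter, on the minus strand at chr6:109008989-109009238, are given 5′ to 3′ with the pair in capitals. For GDF15 the pair alone is given, at chr19:18386186-18386205 on the plus strand, because it begins 28 bases after the start and so lies in the transcribed part.
MDM2: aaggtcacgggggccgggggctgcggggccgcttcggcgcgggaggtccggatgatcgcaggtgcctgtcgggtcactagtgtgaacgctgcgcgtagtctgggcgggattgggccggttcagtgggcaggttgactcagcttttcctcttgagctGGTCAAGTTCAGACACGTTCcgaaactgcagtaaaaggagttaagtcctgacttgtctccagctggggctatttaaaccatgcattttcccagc
SESN1: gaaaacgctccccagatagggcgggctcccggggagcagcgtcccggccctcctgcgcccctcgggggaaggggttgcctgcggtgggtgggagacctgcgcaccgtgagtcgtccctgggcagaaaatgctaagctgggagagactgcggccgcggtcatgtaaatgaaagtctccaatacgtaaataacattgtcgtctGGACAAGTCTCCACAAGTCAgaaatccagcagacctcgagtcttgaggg
GDF15: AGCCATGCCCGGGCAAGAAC

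The MDM2 pair began 94 bases before the start, at 68808923 to 68808942, with 2 mismatches, and the same bases fell in a second annotated window that starts slightly downstream. The upstream MDM2 promoter, 2 windows, held none. The SESN1 pair began 49 bases before the start, at 109009018 to 109009037, with 3 mismatches, and the other 2 windows of SESN1 held none. The GDF15 pair had 3 mismatches. No pair within this limit was in the windows of MDM4, CDKN1A, BTG2 or ZMAT3, which says only that these letters are not in these 300 bases. The letters ACGTG, a core that XBP-1s can bind, were on either strand in the windows of MDM2 and MDM4 and in 21.4% of all windows, and in MDM2 they overlap the p53 pair. The letters CCACG, part of the endoplasmic reticulum stress element, were in windows of MDM4, SESN1 and ZMAT3 and in 38.1% of all windows. These matches describe sequence and no binding was measured.

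All 14 probes of the 9 genes were well above background on all 6 arrays and passed the filter on dim probes. Of them 9 were lower in shXBP-1s, 4 were higher and 1 had a difference of 0.00, with a median of -0.23 against -0.02 over all tested probes. Calls required 2-fold or more together with a limma adjusted p under 0.05, and 2 of the 14 met this, 1 of MDM2 and that of GDF15, both lower. Over the 27624 tested probes 4.90% were called, 2.61% lower and 2.29% higher. The groups did not overlap for 12 of the 14 probes, 8 lower and 4 higher, beside 52.4% of all tested probes, and 11 of the 14 had an adjusted p under 0.05 whatever the fold, beside 41.7%. Since the genes were chosen with this contrast known, nothing is read from these shares.

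**Figure D1:**
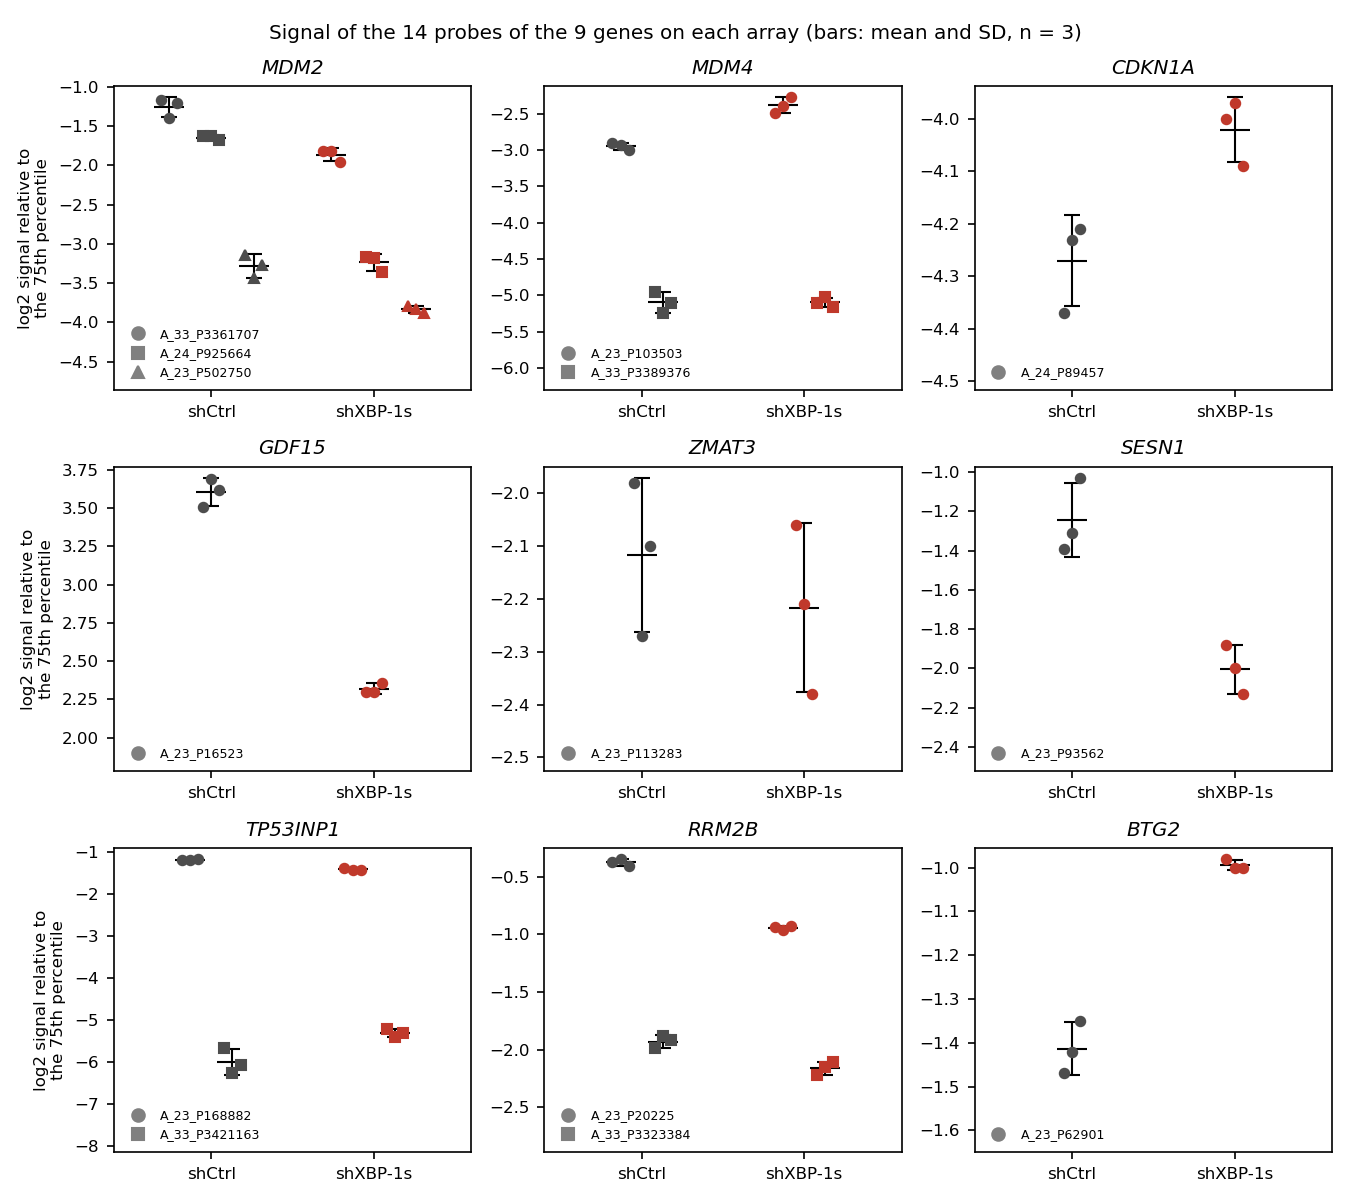
Level of each of the 14 probes on each array, as log2 signal relative to the 75th percentile of the array, for shCtrl (grey) and shXBP-1s (red), with the mean and SD (n = 3) as bars and each probe of a gene as its own symbol. The vertical scale differs between genes. GDF15 stands at 3.51 to 3.69 in shCtrl and at 2.3 to 2.36 in shXBP-1s, all 3 MDM2 probes are lower in shXBP-1s by unlike amounts, and ZMAT3 overlaps.

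MDM2, the ubiquitin ligase that marks p53 for degradation, was lower in shXBP-1s by all 3 of its probes, with differences from -1.59 to -0.55. The brightest probe, A_33_P3361707, had levels of -1.16, -1.40 and -1.20 in shCtrl and -1.81, -1.82 and -1.96 in shXBP-1s, or -1.25 ± 0.13 and -1.87 ± 0.09 (SD, n = 3). Every shXBP-1s array was lower than every shCtrl array, with a difference of -0.61 (SE 0.08), or 1.53-fold lower. Before scaling its signals were 306.8, 289.3 and 329.3 in shCtrl and 280.5, 253.3 and 202.9 in shXBP-1s, in the same order. Within scan 2 the difference was -0.70 (SE 0.10).

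The probe A_24_P925664 gave the largest difference of the 14. Its levels were -1.63, -1.62 and -1.68 in shCtrl and -3.16, -3.18 and -3.36 in shXBP-1s, or -1.64 ± 0.03 and -3.23 ± 0.11. The difference was -1.59 (SE 0.07), or 3.0-fold lower, and -1.60 (SE 0.10) within scan 2. The unscaled signals, 221.5, 247.4 and 235.8 against 110.3, 98.8 and 77.2, did not overlap either. Under normexp background correction followed by quantile normalization the difference was -0.95 and the probe was no longer called.

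The third MDM2 probe, A_23_P502750, stood on the array in 10 spots, whose log2 signals had an SD of 0.0528 to 0.0927 within an array. Its levels were -3.14, -3.44 and -3.27 in shCtrl and -3.79, -3.83 and -3.88 in shXBP-1s, or -3.28 ± 0.15 and -3.83 ± 0.05. These did not overlap, and the difference was -0.55 (SE 0.09), or 1.46-fold lower. Within scan 2 it was -0.70 (SE 0.11). Under normexp background correction it was -0.84 (SE 0.47), where the median of all tested probes was -0.41. Under normexp then quantile normalization it was -0.27. All 3 probes carry the same RefSeq accession, NM_002392, so the annotation does not say which MDM2 transcripts each of them sees. In each of the 3 probes shXBP-1s replicate 3 had the lowest level. The direction was therefore the same for the 3 probes, while the size of 1 of them stood apart from the other two, and what sets the probes apart was not tested.

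MDM4, the relative of MDM2 that binds p53 and blocks its activity, was higher in shXBP-1s by 1 probe and level by the other. The probe A_23_P103503, with 10 spots, had levels of -2.91, -2.94 and -3.0 in shCtrl and -2.49, -2.40 and -2.27 in shXBP-1s, or -2.95 ± 0.04 and -2.39 ± 0.11. The groups did not overlap, and the difference was 0.56 (SE 0.07), or 1.48-fold higher, and 0.52 (SE 0.10) within scan 2. Under normexp background correction it was -0.06, where the median of all tested probes was -0.41. The probe A_33_P3389376, assigned to another transcript of the gene, NM_001204171, had levels of -4.95, -5.24 and -5.11 in shCtrl and -5.11, -5.03 and -5.16 in shXBP-1s. Its groups overlapped, with means of -5.10 ± 0.15 and -5.10 ± 0.06, a difference of 0.00 (SE 0.12) and -0.15 (SE 0.15) within scan 2. MDM2 and the brighter MDM4 probe thus moved in opposite directions on these arrays, a description of values selected on this contrast.

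GDF15 encodes a secreted cytokine of the TGF-beta superfamily that many kinds of cell stress induce and that acts on the brainstem receptor GFRAL. Its probe A_23_P16523 had signals of 7825.4, 9820.3 and 9294.4 in shCtrl and 4833.1, 4395.5 and 4073.2 in shXBP-1s. The levels were 3.51, 3.69 and 3.62 against 2.3, 2.3 and 2.36, or 3.61 ± 0.09 and 2.32 ± 0.04. Each shXBP-1s array lay more than 1 log2 unit below each shCtrl array. The difference was -1.29 (SE 0.06), or 2.44-fold lower, and -1.19 (SE 0.07) within scan 2. Leaving out any 1 array gave between -1.34 and -1.25.

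Of the cell cycle inhibitors among the 9 genes, CDKN1A was higher by an amount that did not pass in the fit over all probes and BTG2 was higher on every shXBP-1s array. CDKN1A encodes p21, which binds and inhibits cyclin-dependent kinases and is the best known target of p53. Its probe A_24_P89457 had levels of -4.37, -4.23 and -4.21 in shCtrl and -4.00, -3.97 and -4.09 in shXBP-1s, or -4.27 ± 0.09 and -4.02 ± 0.06. The groups did not overlap but lay close, with a difference of 0.25 (SE 0.09), or 1.19-fold higher, and 0.35 (SE 0.11) within scan 2. The signal of this probe was low, 33.3 to 40.9 in shCtrl and 46.5 to 61.4 in shXBP-1s, and normexp background correction gave -0.52 (SE 0.55). BTG2 encodes an antiproliferative protein that recruits the CCR4-NOT deadenylase to messenger RNA. Its probe A_23_P62901 had levels of -1.47, -1.42 and -1.35 in shCtrl and -0.98, -1.0 and -1.0 in shXBP-1s, or -1.41 ± 0.06 and -1.0 ± 0.01. The groups did not overlap, with a difference of 0.42 (SE 0.05), or 1.33-fold higher, and 0.47 (SE 0.07) within scan 2.

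SESN1, RRM2B and TP53INP1 serve metabolism and stress responses. SESN1 encodes sestrin 1, an inhibitor of the growth kinase complex mTORC1. Its probe A_23_P93562 had levels of -1.39, -1.31 and -1.03 in shCtrl and -1.88, -2.0 and -2.13 in shXBP-1s, or -1.24 ± 0.19 and -2.01 ± 0.13. The groups did not overlap in spite of the spread among the shCtrl arrays, and the difference was -0.76 (SE 0.10), or 1.69-fold lower. Against shCtrl replicate 1 alone, the lowest of the shCtrl arrays, it was -0.62 (SE 0.13).

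RRM2B encodes the p53-inducible small subunit of ribonucleotide reductase, which supplies deoxynucleotides outside S phase. The probe A_23_P20225 had levels of -0.37, -0.35 and -0.41 in shCtrl and -0.94, -0.96 and -0.93 in shXBP-1s, or -0.38 ± 0.03 and -0.94 ± 0.01. The groups were far apart relative to their spread, with a difference of -0.56 (SE 0.04), or 1.48-fold lower, and -0.57 (SE 0.06) within scan 2. The probe A_33_P3323384 had levels of -1.99, -1.88 and -1.92 in shCtrl and -2.22, -2.15 and -2.11 in shXBP-1s, or -1.93 ± 0.06 and -2.16 ± 0.06. It too was lower on every shXBP-1s array, but by less, -0.23 (SE 0.06), and by -0.17 (SE 0.08) within scan 2.

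The probes of TP53INP1, which encodes a nuclear and autophagy-linked protein that promotes p53 activity, disagreed in direction. The probe A_23_P168882 had levels of -1.20, -1.20 and -1.17 in shCtrl and -1.40, -1.44 and -1.43 in shXBP-1s, a difference of -0.23 (SE 0.05) overall and -0.23 (SE 0.07) within scan 2. The probe A_33_P3421163, with the same accession, had levels of -5.67, -6.27 and -6.08 in shCtrl and -5.21, -5.41 and -5.32 in shXBP-1s, or -6.00 ± 0.31 and -5.31 ± 0.10. The first was lower and the second higher on every shXBP-1s array. The second had signals of only 9.9 to 13.5 in shCtrl and 19.8 to 26.5 in shXBP-1s, where the lowest signals well above background on an array were 4.9 to 7.4, and its difference was 0.69 (SE 0.18), 0.36 (SE 0.19) within scan 2 and -0.74 under normexp background correction.

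ZMAT3 encodes a zinc-finger protein that binds RNA and alters splicing and stability of transcripts. Its probe A_23_P113283, with 10 spots, had levels of -1.98, -2.27 and -2.10 in shCtrl and -2.06, -2.21 and -2.38 in shXBP-1s, or -2.12 ± 0.15 and -2.22 ± 0.16. The groups overlapped, and the difference of -0.10 (SE 0.10) was no larger than its error. Within scan 2 it was -0.24 (SE 0.13).

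**Figure D2:**
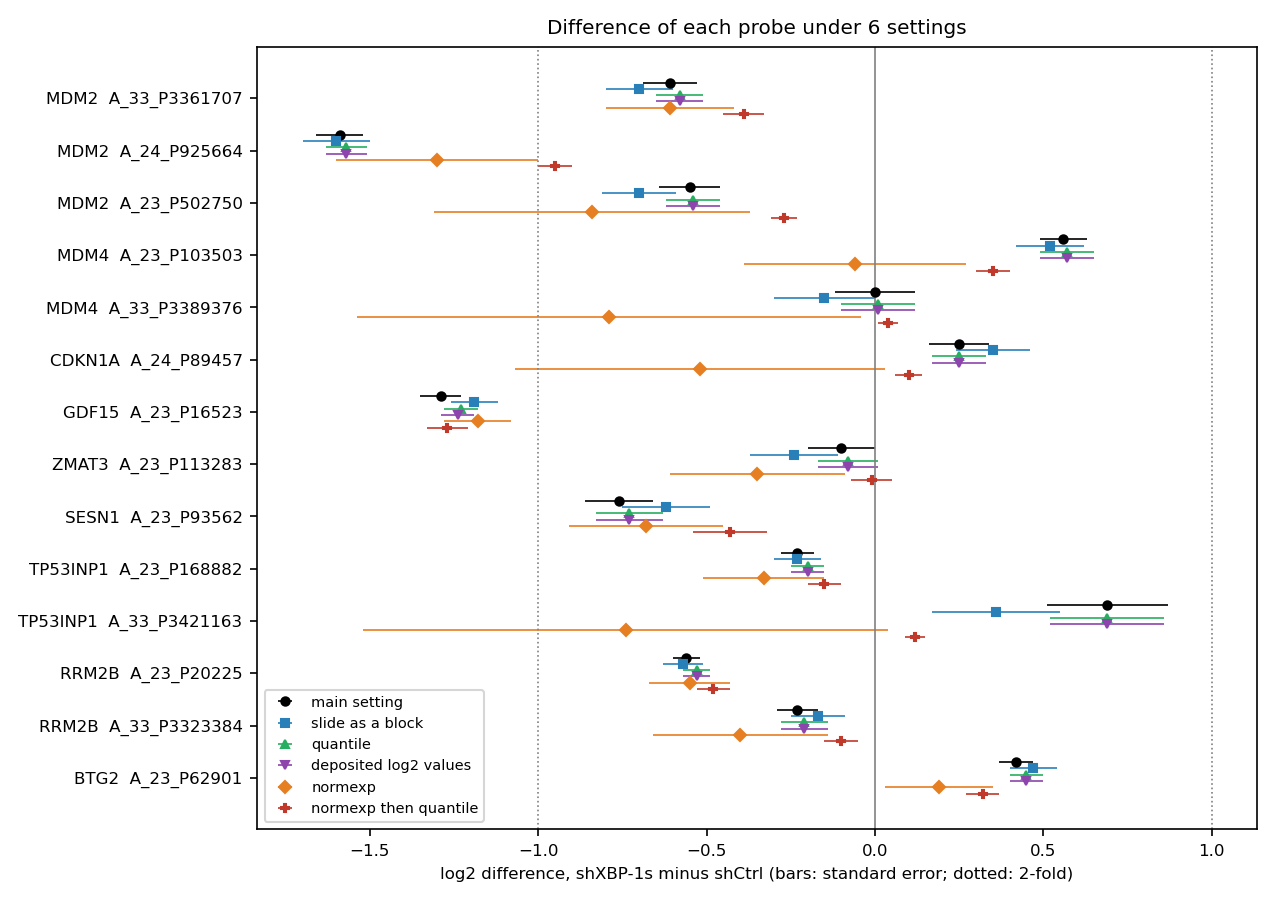
Difference (log2, shXBP-1s minus shCtrl) of each of the 14 probes, with its standard error, under the main setting and 5 alternatives, with dotted lines at 2-fold. The setting labelled slide as a block takes the scan as the block and is the value within scan 2. GDF15 lies between -1.29 and -1.18 under all 6 settings, whereas the probe of MDM4 at 0.56 and the higher TP53INP1 probe at 0.69 cross 0 under normexp, whose errors are wide for dim probes.

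The wider p53 programme was described by lists written from general knowledge, with each gene represented by its brightest tested probe. Earlier results of these data were known when the lists were chosen, so their shares are a description. Among 16821 tested genes, 5.18% were called, 484 lower and 387 higher, 4619 fell and 3184 rose by the adjusted p alone, and the median difference was -0.04. Of 43 further p53 target genes tested, 15 fell, 11 rose and 17 did not pass, with a median of -0.08. Called were 5 of them (11.6%), 3 lower and 2 higher. These counts take 1 probe per gene, and other probes of some genes differed. ATF3, at 0.14 by its brightest probe, did not pass but had 0.80, 0.18 and 0.94 at its others. TGFA, at 0.33, had 1.0 at its other probe. DDB2, at -0.60, had -0.11 at its other probe, and PPM1D, at -0.33, had 0.16. TRIM22, an interferon-inducible ubiquitin ligase, fell by 1.53 (SE 0.06, limma adjusted p = 1.91e-06). POLH, the DNA polymerase that copies past ultraviolet lesions, fell by 1.1 (SE 0.08, limma adjusted p = 2.6e-05), while its dimmer probe had a difference of 0.09. PLK2, a polo-like kinase, fell by 1.01 (SE 0.08, limma adjusted p = 3.8e-05). PERP, a membrane protein of desmosomes, rose by 1.01 (SE 0.11, limma adjusted p = 0.000156). PLK2 and PERP sit at the 2-fold limit and dropped below it under some settings, PLK2 at -0.93 without shCtrl replicate 2, at -0.99 without shXBP-1s replicate 2, just short of it without shXBP-1s replicate 1, and at -0.96 with quantile normalization or the deposited values and -0.87 under normexp, and PERP at 0.90 without shXBP-1s replicate 3 and at 0.98 without shCtrl replicate 1 or 3. POLH gave -1.05 under normexp without passing the test, in a setting where the median of all tested probes was -0.41. Under normexp then quantile normalization it gave -0.52.

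Of 35 genes that regulate p53 or the MDM proteins, 8 fell, 7 rose, 20 did not pass and none was called, with a median of 0.00. The smallest p-values belonged to TP63, the p53 relative that maintains squamous epithelium, which rose by 0.93 (SE 0.08, limma adjusted p = 7.6e-05), and TP53BP1, an adaptor of double-strand break repair, which rose by 0.51 (SE 0.05, limma adjusted p = 0.000101). Of 24 cell cycle genes that p21 and the DREAM repressor complex lower, 13 fell, none rose and 11 did not pass, with a median of -0.18 and none called. MCM3 and MCM6, subunits of the replicative helicase, fell by 0.53 (SE 0.04, limma adjusted p = 2.9e-05) and 0.58 (SE 0.05, limma adjusted p = 4.7e-05). Of 21 tested genes induced by ATF4 and CHOP, the other stress route to GDF15, 7 fell, 5 rose and 9 did not pass, with a median of -0.07. The cystine importer SLC7A11 was the only one called, with a fall of 1.20 (SE 0.11, limma adjusted p = 7.2e-05), and -0.88 under normexp then quantile normalization.

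**Figure D3:**
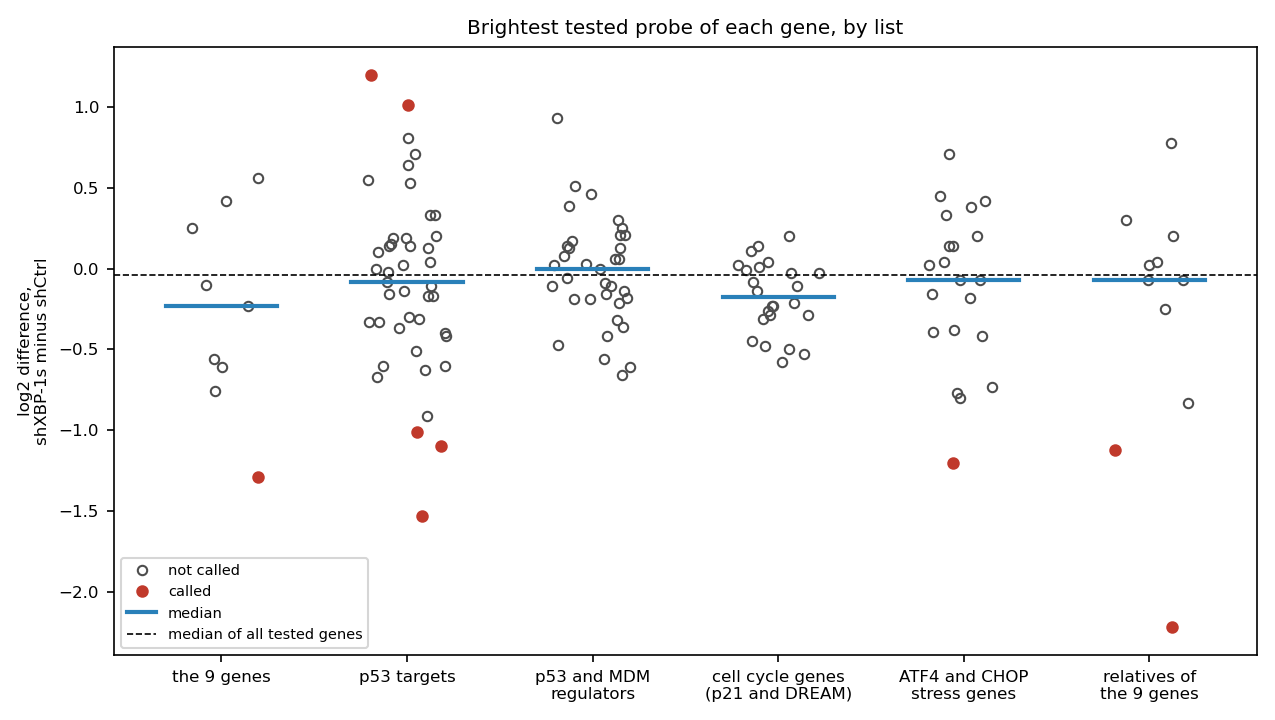
Difference (log2, shXBP-1s minus shCtrl) of the brightest tested probe of each gene, for the 9 genes and the 5 lists, with called genes filled, the median of each list as a blue line and the median of all tested genes (-0.04) dashed. The list medians lie between -0.18 and 0.00, with called genes in both directions only among the p53 targets, and horizontal position within a list has no meaning.

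The closest relatives of the 9 genes within their families were looked at as a further group of 11, of which 4 fell, 2 rose and 5 did not pass, with a median of -0.07. Beside CDKN1A, the other inhibitors of its family were lower at their brightest probes. CDKN1C, which encodes p57, had mean levels of -0.96 ± 0.25 in shCtrl and -3.19 ± 0.03 in shXBP-1s and fell by 2.22 (SE 0.12, limma adjusted p = 6.05e-06), or 4.67-fold. The difference of CDKN1C was smaller under normexp, -1.75, and under normexp then quantile normalization, -1.46. CDKN1B, which encodes p27, fell by 0.83 at its brightest probe, with a difference of -0.15 at its other probe (limma adjusted p = 0.202). Among relatives of BTG2, BTG3 fell by 1.12 (SE 0.06), or -0.95 under normexp and -0.97 under normexp then quantile normalization, TOB2 rose by 0.30 (SE 0.04), and BTG1 and TOB1 had differences of 0.02 and -0.07 that did not pass. The sestrin SESN3 rose by 0.78 (SE 0.09), but under normexp its difference was -0.41, and SESN2, at 0.20, did not pass. The S-phase subunit RRM2 fell by 0.25 (SE 0.08, limma adjusted p = 0.0367), a pass lost under 10 alternatives, 4 of which leave out 1 array (shCtrl replicate 1 or 3, or shXBP-1s replicate 2 or 3), and the large subunit RRM1, at -0.07, did not pass. TP53INP2, at 0.04, did not pass either.

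The genes whose levels over the 6 arrays were most like those of the brightest MDM2 probe were found by the root mean square distance, in log2 units, after subtraction of each probe's shCtrl mean. Among the nearest were FGF7P3 at 0.0246, PPCS at 0.0303, ZNF511 at 0.0347 and DCAF7 at 0.0369, with differences from -0.62 to -0.58. For GDF15 they were RAMP1 at 0.0213, EGLN3 at 0.0264, KIAA0513 at 0.0341, OPTN at 0.0411 and HLA-DQB1 at 0.0418, with differences from -1.31 to -1.27. The likeness rests on 6 arrays that share their scaling, and on the contrast itself.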

How the data were processed

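RNA of CAL-27 cells was measured on 6 arrays, 3 shCtrl and 3 shXBP-1s by the sample labels. The scanner tables that the authors deposited come from Agilent Feature Extraction 11.0.1.1, and their intensity for each spot is background-subtracted and not normalized between arrays. They also deposited log2 values for each probe, for which the submitters' processing notes name RMA, used only as an alternative. The labels describe a NimbleGen labelling procedure, whereas the files come from an Agilent scanner. The number of arrays limits the precision.

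Between 230 and 377 flagged spots per array were left out, each array's 75th percentile over non-control spots was subtracted from the log2 processed signal, and spots were averaged per probe. Of 34127 probes, 25771 matched a RefSeq gene symbol by accession, 19 lacked complete values, and 27624 were tested, those well above background (more than 50% of their spots) on all 3 arrays of at least 1 group. R 4.3.3 and limma 3.58.1 (lmFit, eBayes with trend) gave 2-sided p-values with Benjamini-Hochberg adjustment over all tested probes, and a call needed 2-fold or more and an adjusted p under 0.05. The steps were tested on simulated data. The 9 genes and all lists were chosen with earlier results of these data known. Named were all probes of the 9 genes, XBP1, up to 4 called genes of each list by p or otherwise 2, all relatives, and the 5 nearest genes to MDM2 and to GDF15. The level of p53 mRNA and some genes this rule names are not reported here. Alternatives were normexp on the median spot signal (offset 50) with and without quantile normalization, quantile normalization, the deposited values, other filters, no trend, the methods' t-test, no minimum fold, the scan or replicate number as a block, the mean over a gene's probes, and leaving out each array.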

Additional observations from a re-analysis of the deposited data

How the results depend on the processing

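Of 168 alternative values of the 14 probes, 140 moved by less than the spread between replicates and the rest by more. Leaving aside MDM4 A_33_P3389376, 3 changed sign, all under normexp. MDM4 A_33_P3389376, level in the main setting, took either sign, from -0.79 under normexp to 0.07 without shCtrl replicate 1. The number of called probes, 1354, became 473 under normexp, 357 under normexp then quantile normalization and 11516 with no minimum fold, and leaving out 1 array gave 1253 to 1695. The methods' t-test gave 1291 unadjusted and 1214 adjusted calls at the same fold. Under normexp the median of all probes was -0.41, beside -0.02 in the main setting. MDM4 A_23_P103503 turned to -0.06, TP53INP1 A_33_P3421163 to -0.74 and SESN3 to -0.41. CDKN1A (-0.52), SESN2 (-0.14) and TP53INP2 (-0.39), which had not passed the test, also turned negative under normexp. Under this setting GDF15 gave -1.18 and the median of the p53 targets was -0.20, beside -0.29 over all tested genes. With the scan as a block GDF15 gave -1.19. Under normexp then quantile normalization MDM2 A_33_P3361707 gave -0.39 and the p53 targets -0.02, beside -0.01 over all tested genes. The cause was not tested. Leaving out 1 array gave -1.34 to -1.25 for GDF15 and -0.68 to -0.56, -1.62 to -1.52 and -0.63 to -0.48 for the MDM2 probes. With the 2-fold minimum, 2 of the 14 probes were called under each setting except normexp then quantile normalization, with 1. With no minimum fold 11 of the 14 passed. Replicate numbers did not pair the samples (correlations of same-numbered arrays -0.016, 0.117 and -0.116), and the replicate block gave 1381 calls. Low signal over background limits the dim probes of MDM2, MDM4, CDKN1A and TP53INP1.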
